A study of Rattus norvegicus with 22 samples.

Results

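Short H3K4me3 regions are described here: stretches of chromatin marked by histone H3 lysine residue 4 trimethylation whose called peak stayed under 1 kb in every sample. A peak of sham replicate 1 was a member when it was shorter than 1000 bases, overlapped a peak in each of the other 3 samples by at least 1 base, and every peak it overlapped was also shorter than 1000 bases. The rule found 8169 members, 23.8% of the 34356 sham replicate 1 peaks that overlapped a peak in all 3 other samples (shared regions). The rule used length and presence only, but both were read from the same libraries as the pileup, so levels are given as a description.

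The mark was profiled by chromatin immunoprecipitation with sequencing (ChIP-seq) in rat hippocampus at day 1 after lateral fluid percussion, a model of traumatic brain injury (TBI) in which a pulse of fluid strikes the exposed dura. All animals were adult male Sprague-Dawley rats. The 2 TBI samples came from rats given the pulse at a moderate setting, and the 2 sham samples from rats that were anesthetized and operated on in the same way but received no pulse. Tissue samples were crosslinked one by one, and no label says outright that the 2 samples of a group were separate animals, so the spread between them may be partly technical.

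Trimethylation at this lysine is deposited mainly around transcription start sites, where the SET1 and MLL methyltransferase complexes act together with initiating RNA polymerase. At an active promoter the mark usually covers several nucleosomes on both sides of the start site, and it is broadest at genes that define a cell's identity. Short stretches are also known from weakly used promoters, enhancers and single marked nucleosomes, and a weak stretch can lie close to the detection limit of the assay.

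The 4 libraries differed in depth and in how much was called. Tags kept after removing duplicates were 17789038 in sham replicate 1, 18972037 in sham replicate 2, 16062200 in TBI replicate 1 and 7236993 in TBI replicate 2. The same lists held 116241, 235078, 178020 and 353688 peaks, so the shallowest library had the longest list. In the headers, the run name of every list says sham and the name of every read file says TBI, so the headers do not separate the groups, and groups were taken from the sample labels. The lists name no gene and no rn5 annotation was used, so neither the genes beside these regions nor marker genes of the hippocampus could be given.

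Most short peaks of sham replicate 1 were not found again everywhere. Of its 96829 peaks under 1 kb, 35901 (37.1%) overlapped a peak in none of the other samples, 27502 (28.4%) in 1, 17899 (18.5%) in 2 and 15527 (16.04%) in all 3. Of these 15527 peaks, 7358 met a peak of 1 kb or more in at least 1 sample and 8169 met short peaks throughout. The recurring peaks were longer and slightly taller. An overlap of 1 base is met more easily by a longer peak, so the difference in length is partly built into this count. Median length was 211 bases for those found in no other sample and 544 bases for those found in all 3, and median pileup was 4.40 against 5.62. Pileup is the number of 200-base tag extensions stacked over a peak, averaged along it, without scaling to depth.

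Few members used more than 1 peak of another sample. In sham replicate 2, TBI replicate 1 and TBI replicate 2, 188, 183 and 218 members overlapped more than 1 short peak, and the highest pileup was then taken. Because 2 neighbouring members can meet the same peak, 62, 58 and 52 members shared their peak with another member in those samples. The limit of 1 kb did not fall at a gap in the data. The 742 members whose longest peak measured 950 to 999 bases had median percentiles of 32.3, 26.6, 30.4 and 27.7 in the order above, and the 794 shared regions just outside, at 1000 to 1049 bases, had 34.1, 29.4, 30.9 and 30.3. A percentile here is the rank of a region's pileup among all 34356 shared regions of the same sample, from 0 to 100.

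The short regions were mostly low. Their median pileup was 5.63 and 5.69 in the 2 sham samples and 4.91 and 2.63 in the 2 TBI samples, where the lowest pileup in each whole list was 4, 4, 3 and 2. At the lowest value of their list stood 168, 134, 220 and 972 members. Scaled per 1000000 tags of each library, the medians became 0.316, 0.300, 0.306 and 0.363. The shallowest library thus had the lowest median before this scaling and the highest after it.

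As a percentile, the median member stood at 26.2 and 22.4 in the sham samples and at 24.3 and 24.2 in the TBI samples. The middle 50% of members ran from 12.0 to 41.5 in sham replicate 1 and from 11.0 to 40.1 in TBI replicate 2. Shared regions with every peak between 1 and 4 kb (8138 regions) had medians of 78.6, 76.9, 77.6 and 76.8, and those with every peak of 4 kb or more (468 regions) had 85.2, 81.9, 82.1 and 80.2. The order of the 3 length classes was the same in all 4 samples. Length and pileup come from the same stacked tags, so no test was made of this order.

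**Figure D1:**
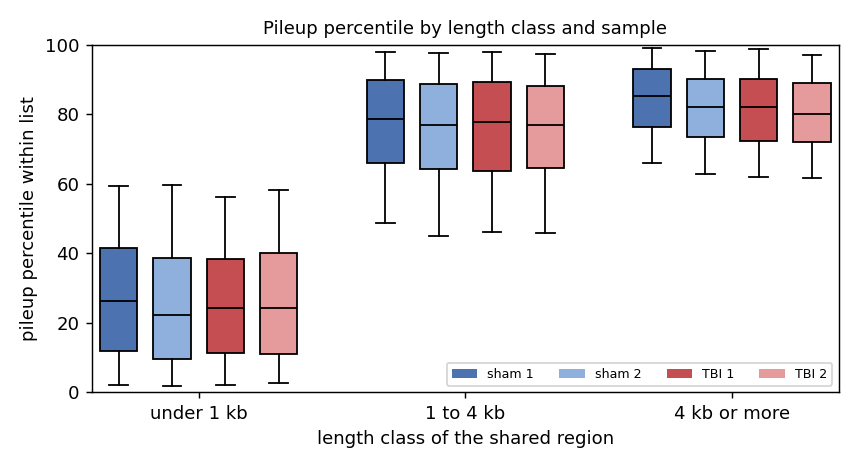
Pileup percentile among 34356 shared regions (vertical axis, 0 to 100) in 3 length classes (horizontal axis) for each of the 4 samples; boxes span the quartiles, the line is the median and whiskers run from the 5th to the 95th percentile of regions. The 4 boxes of regions under 1 kb have medians from 22.4 to 26.2, and those of both longer classes lie above 76.

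Length within the class varied between samples. Median member length was 491 and 503 bases in sham and 576 and 408 bases in TBI, so both extremes belonged to the TBI group. Peaks at 200 bases, the shortest length that occurs, made up 5.61%, 5.52%, 5.88% and 17.2% of members. The member with the shortest peaks, chr7:486704-486903 (coordinates here are rn5 and give the sham replicate 1 peak), measured 200 bases in each sample, yet only 49 bases were common to the 4 peaks. Its pileup was 5.80 and 4.84 in sham and 4.18 and 2.24 in TBI.

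At the bottom of the class were members whose pileup equalled or nearly equalled the lowest of each list. The region chr1:61054338-61054654 had a pileup of 4.00 in both sham samples, 3.00 in TBI replicate 1 and 2.00 in TBI replicate 2. The next lowest were chr6:151260008-151260390, with 4.09, 4.06, 3.00 and 2.00, and chr9:7700234-7700614, with 4.21, 4.00, 3.00 and 2.00. The 4 samples were at or within 0.21 of the lowest pileup of their list at all 3 regions.

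At the top, 28 members lay above the 90th percentile in all 4 samples and 73 in at least 1. The highest was chr4:142116033-142116775. Its pileup was 214.79 and 214.54 in the sham samples and 214.78 and 211.00 in the TBI samples, and its 4 peaks measured 743, 742, 744 and 745 bases. Its 4 pileups were nearly equal although the libraries were not. The ratio of TBI replicate 2 to TBI replicate 1 was 0.98 there, while the ratio of their tags was 0.451 and the median ratio over all members was 0.538. With 1 tag allowed per position and strand and 200-base extensions, the pileup cannot pass 400. Fold enrichment over the genome-wide background, which sets each pileup against the background of its own library, was 74.3 and 71.2 in sham and 79.4 and 120 in TBI, the highest mean of any member. A peak of 1 kb or more lay 3038 to 3047 bases away in each sample.

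The second highest, chr3:43009-43816, had pileups of 129.55 and 140.14 in sham and 121.00 and 97.81 in TBI. It too varied less than depth did, with a ratio of 0.81 between TBI replicate 2 and TBI replicate 1. The next 4 scaled with depth more nearly as the other members did. At chr1:3769988-3770641 the pileup was 92.02 and 85.22 in sham and 119.26 and 54.15 in TBI. At chr15:39884827-39885646 it was 84.54 and 77.62 in sham and 107.98 and 41.90 in TBI. In each of these regions TBI replicate 1 was highest and TBI replicate 2 lowest, so the TBI pair enclosed the sham pair. The remaining pair, chr7:15947590-15948165 and chr16:80370321-80371167, showed the same order, with 90.86, 81.23, 102.98 and 41.09 at the first and 80.22, 65.60, 90.83 and 49.00 at the second. All 6 stood above the 99.7th percentile in all 4 samples.

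Edges matched best among the strongest members. MACS2, the peak caller, gives each peak a −log10 q, the q being a p adjusted over all sites. With a −log10 q of at least 10 in all 4 samples, 108 members (1.32%) formed a strong tier. Another 367 (4.49%) had a −log10 p of at least 4 in all 4 samples, the cutoff the authors set for narrow enrichment, and 7694 (94.2%) did not. Bases common to the 4 peaks made up a median of 88.8% of their joint span in the strong tier, 67.1% in the second and 24.7% in the rest. In the last group, 1005 members, 12.3% of all, had no base common to the 4 peaks, since each needed only to touch the sham replicate 1 peak. Tiers were set on the values of all 4 samples, so these figures are descriptive.

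**Figure D2:**
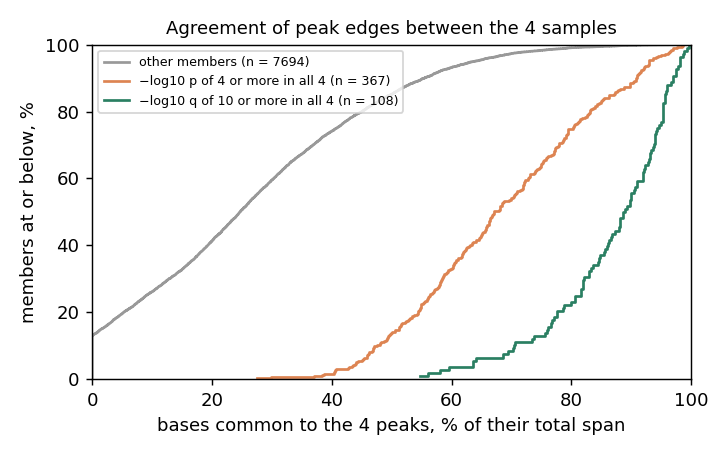
Cumulative share of members (vertical axis, percent) by the bases common to their 4 peaks as a percent of the joint span (horizontal axis) in 3 tiers of peak significance. The strong tier rises last, with a median of 88.8%, against 24.7% for the members outside both upper tiers.

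The spread between the highest and the lowest of a member's 4 percentiles had a median of 22.1 points over all members. By tier it was 8.64 points in the strong tier, 8.45 in the second and 22.8 in the rest, so the upper 2 tiers were alike in this measure. Over the 8169 members, Spearman's rho between samples was 0.577 for the sham pair and 0.514 for the TBI pair. Between groups it was 0.625 for sham replicate 1 with TBI replicate 1, 0.485 for sham replicate 1 with TBI replicate 2, 0.501 for sham replicate 2 with TBI replicate 1 and 0.443 for sham replicate 2 with TBI replicate 2. Both pairs within a group thus lay below the closest pair across groups and above the remaining pairs across groups. For regions of 1 to 4 kb the 6 values ran from 0.936 to 0.953. The short regions cover a narrower range of pileups than the others, and points within a library share its depth and antibody reaction.

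The question of the day 1 comparison was whether the injury changed H3K4me3. For the short regions the answer in percentiles was 0 calls among 8169 members (limma, two-sided, Benjamini-Hochberg over all 34356 shared regions, smallest adjusted p = 0.261). Over all shared regions 0.0669% were called higher in TBI and 0 lower. All 23 called regions had peaks of different length classes and a longest peak of at least 2288 bases. At an unadjusted p under 0.05, 163 members were higher (2.00%, against 3.09% of all shared regions) and 338 lower (4.14%, against 3.44%). This imbalance turned with TBI anchors, to 315 higher and 271 lower members on TBI replicate 1 and 222 and 146 on TBI replicate 2. Anchored on sham replicate 2 it did not turn, with 154 higher and 291 lower members. Over all shared regions the TBI anchors gave 1339 and 1275, and 989 and 735, so the order turned there too. The sham replicate 2 anchor gave 937 and 988. In all, 6.93% of members passed against 7.69% of all shared regions on TBI replicate 1. On TBI replicate 2 the shares were 4.63% and 4.56%, and on sham replicate 2 they were 5.25% and 5.37%. Leaving out a sample also changed the balance, but a lone sample has no spread of its own, so those counts are not read. The standard error of a member's difference had a median of 9.60 points. At 2 samples per group even the largest decrease and increase, −50.23 and 39.98 points, were not called in percentiles (limma adjusted p = 0.261 and 0.670). The 0 calls therefore do not exclude large shifts at single members.

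With the rule anchored on sham replicate 1, mean percentiles moved little as a class. The median of the TBI − sham difference over members was −0.18 points, the middle 50% lay between −7.82 and 7.41, and 4019 differences were positive and 4150 negative. The same median was −0.34 over all shared regions, −0.39 for regions of 1 to 4 kb and −1.85 for those of 4 kb or more. Averaged within groups, the sample medians were 24.27 in sham and 24.28 in TBI, while the medians of the 2 sham samples differed from each other by 3.82 points. The TBI − sham difference of these averages was 2.75 and 4.05 points anchored on TBI replicates 1 and 2, and −0.16 on sham replicate 2. With 2 samples a side an exact permutation test cannot go below a p of 0.3333, so none was run on these medians.

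Both TBI percentiles lay above both sham percentiles at 1429 members (17.5%, against 16.8% of all shared regions). They lay below at 1508 members (18.5%, against 19.7%), and the groups overlapped at 5232 (64.0%). These shares were near the background, and their order depended on the sample that anchored the rule. Anchored on TBI replicate 1 the shares were 23.1% higher and 14.3% lower, and on TBI replicate 2 they were 24.4% and 12.5%. The shares over all shared regions are not given for these anchors. A change in the members cannot be told here from a change in all regions.

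**Figure D3:**
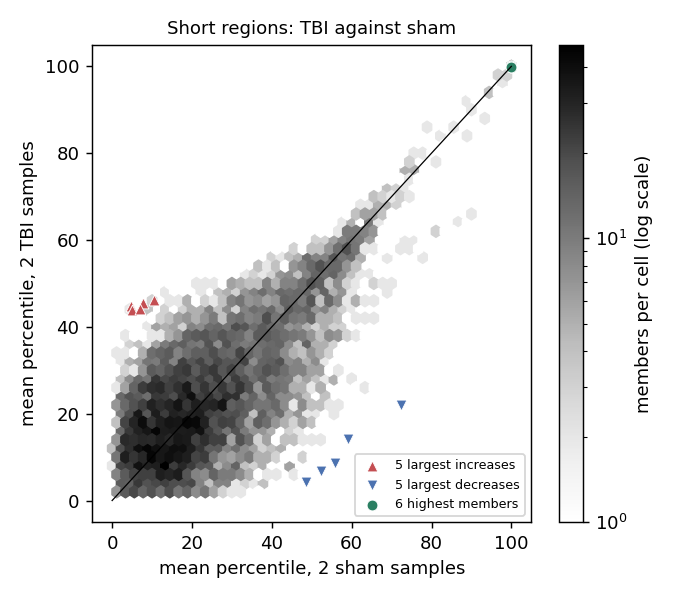
Mean pileup percentile of each of 8169 short regions in the 2 TBI samples (vertical axis) against the 2 sham samples (horizontal axis); shading gives the number of members per cell on a log scale and the line marks equality. Most members lie below the 60th percentile on a wide band around the line, which narrows toward the top.

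Where short regions lay close together, percentiles were lower in TBI. The genome was divided into windows of 500 kb, and 3364 windows held at least 1 member. The 25 windows with 10 or more members held 358 members (4.38%). This division was made after the values had been seen. Windows were taken by their number of members and not by a difference. Each member had to be a sham replicate 1 peak, however, so this number may itself depend on the sham levels. In these windows the median percentile was 42.4 and 49.9 in the sham samples and 24.1 and 37.2 in the TBI samples. The sham pair stood above the TBI pair, although the 2 samples within each group also differed by several points. The median difference was −13.06 points, with 298 of 358 members (83.2%) negative, against 0.20 points and 49.3% over the other 7811 members. The groups did not overlap with TBI lower at 177 of the 358 (49.4%, against 19.7% of all shared regions) and with TBI higher at 18 (5.03%, against 16.8%). No test was made, since neighbouring members are not independent.

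**Figure D4:**
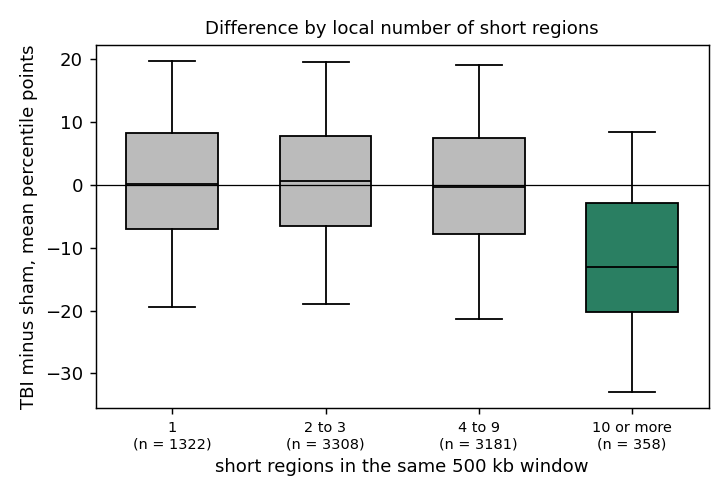
TBI − sham difference of mean percentile (vertical axis, points) for members grouped by how many short regions share their 500 kb window (horizontal axis); boxes span the quartiles, the line is the median and whiskers run from the 5th to the 95th percentile. Medians lie within 1 point of 0 up to 9 members a window and at −13.06 points for 10 or more.

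The window median was negative in 22 of the 25 windows. The fullest, chr16:21500001-22000000, held 40 members with medians of 48.8, 56.2, 31.4 and 38.4, and 38 of them were lower in TBI. In chr1:187500001-188000000 all 35 members were lower, with medians of 58.9 and 67.3 in sham and 44.1 and 51.3 in TBI. In chr1:100000001-100500000 all 15 were lower, with a median difference of −19.74 points. The 3 windows with a positive median were chr7:11000001-11500000 at 2.64 points, chr3:170000001-170500000 at 2.98 points and chr19:54500001-55000000 at 5.03 points. The pattern was thus not seen in every crowded window.

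Longer regions of the same windows stood lower as well. Among the 82 shared regions of 1 to 4 kb in these 25 windows the median difference was −12.35 points, against −0.36 over the other 8056, and among 327 regions of mixed length it was −11.88, against −0.20 over 17254. The difference was therefore not confined to short regions. TBI replicate 1 had the lowest median in 21 of the 25 windows and sham replicate 2 the highest in 17. Without TBI replicate 1 the median difference over the 358 members was −7.13 points, without TBI replicate 2 it was −16.93, without sham replicate 1 −17.23 and without sham replicate 2 −8.48. With the rule anchored on TBI replicate 1 or TBI replicate 2, windows of 10 or more members numbered 28 and 29, with median differences of −9.53 and −7.93 points. Over the other members the same anchors gave 2.27 and 3.56 points. Anchored on sham replicate 2, 28 such windows had a median difference of −12.10 points, against −0.04 over the other members. Scaled per 1000000 tags, the medians in the 25 windows were 0.414 and 0.502 in sham and 0.304 and 0.436 in TBI, so on this scale TBI replicate 2 lay between the sham samples. The authors' calls set each peak against 1 background for the whole genome, and the input coverage of these windows was not analysed here.

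Members in these windows also differed in other measures. Bases common to the 4 peaks made up a median of 47.4% of the joint span, against 25.7%. Over all members this share rose with mean percentile, from 8.67% in the lowest quartile to 52.9% in the highest. Median percentiles in the other windows were 25.5 and 21.5 in sham and 24.3 and 23.6 in TBI. How far level accounts for the better match of edges was not tested. A peak of 1 kb or more lay within 5 kb in all 4 samples for 26.8% of members in these windows, against 12.6% in the others. The windows were chosen for holding many short peaks, so nearness to another peak may follow from that choice.

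The 5 largest decreases all lay outside the top 2 tiers. The largest was chr1:100126645-100127054, with pileups of 21.66 and 29.60 in sham and 5.61 and 2.30 in TBI. Both TBI samples lay below both sham samples, which the rule for naming required of all 5 decreases. In percentiles these were 66.9 and 77.7 against 30.8 and 13.3, a difference of −50.23 ± 8.22 points (SE, n = 2 per group, limma adjusted p = 0.261). The region lay 314 to 364 bases from a peak of 1 kb or more in every sample and in 1 of the crowded windows.

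The next, chr7:10444139-10444603, had percentiles of 50.0 and 61.5 in sham and 1.35 and 16.02 in TBI. At chr3:173916422-173916848 they were 48.6 and 56.2 in sham and 0.578 and 13.0 in TBI, with a TBI replicate 1 pileup of 3.00, the lowest value of that list. The other decreases were chr1:187896106-187896694, from 53.9 and 64.3 to 7.19 and 21.3, and chr1:56430959-56431160, from 40.0 and 57.3 to 6.01 and 2.53. Both of these lay in crowded windows, as did 3 of the 5 decreases in all. Adjusted p for these 4 regions ran from 0.594 to 0.670.

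The 5 largest increases were smaller in pileup. At chr7:118144843-118145273 the pileup was 4.28 and 4.54 in sham and 7.45 and 4.04 in TBI, which gave percentiles of 3.81 and 5.61 against 41.0 and 48.4. The difference was 39.98 ± 9.38 points (SE, n = 2 per group, limma adjusted p = 0.670). In both sham samples it stood near the lowest pileup of the list. At chr20:9997836-9998035 the percentiles were 7.42 and 2.43 in sham and 50.4 and 37.4 in TBI. At chr4:55481466-55482006 they were 8.68 and 6.92 against 42.3 and 48.7. The sham pileups of all 3 lay within 0.64 of 4, the lowest value listed in either sham sample.

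The last increases were chr1:223056417-223056895, from 11.2 and 2.96 to 36.9 and 51.2, and chr3:170476647-170477189, from 12.5 and 8.26 to 50.4 and 42.1. The latter lay in a crowded window, one of the 3 with a positive median. Adjusted p for all 5 increases ran from 0.670 to 0.707 (limma). No gene can be given for any of these regions.

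**Figure D5:**
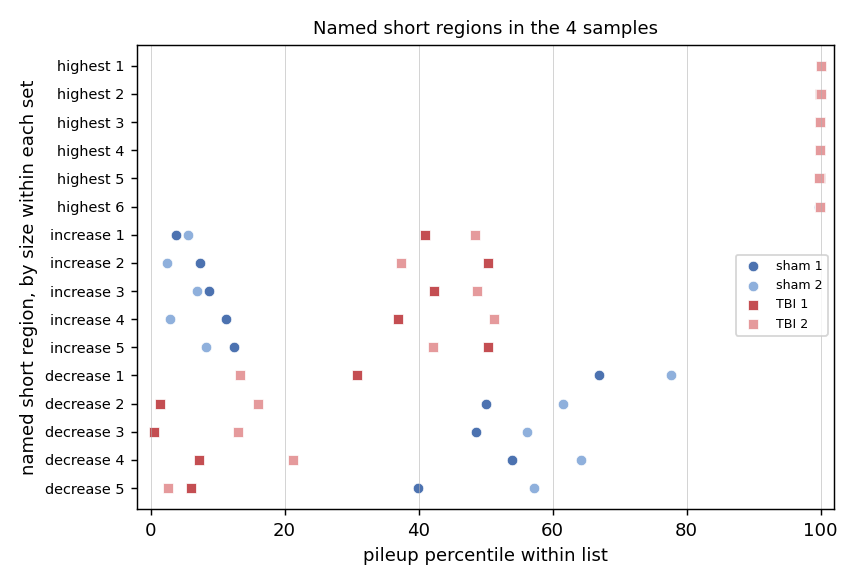
Pileup percentile (horizontal axis, 0 to 100) of the 6 highest members and of the 5 largest increases and decreases in TBI (vertical axis, in order of size within each set) with 1 point per sample. At the 6 highest the points coincide near 100; at the increases the sham points lie below 13 and the TBI points above 36, and at the decreases the sham points lie above 39 and the TBI points below 31.

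On a log2 scale some decreases passed the threshold. With log2 pileup centred on the median of all shared regions, 13 members were called lower and 0 higher, where 0.0757% of all shared regions were called lower and 0.378% higher (limma). Quantile normalisation left 1 member lower and 0 higher, where 0.0116% and 0.271% of shared regions were called. That member was again chr1:100126645-100127054, with a log2 difference of −2.35 ± 0.32 (SE, adjusted p = 0.0340), and −2.33 ± 0.30 after centring (adjusted p = 0.000343). Of the 13 members, 8 lay in crowded windows, and 3 lay in chr1:187500001-188000000. One of these, chr1:187911004-187911667, had a log2 difference of −1.53 (limma adjusted p = 0.0372), and chr1:187893474-187894454 one of −1.37 (limma adjusted p = 0.0194). All 13 had TBI percentiles below both sham percentiles.

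In the strong tier the direction of the difference depended on how it was summarised. Sample medians were 82.6 and 89.3 in sham and 83.2 and 83.9 in TBI, a difference of group means of −2.40 points, and sham replicate 2 stood apart from the other 3. Ranked only among the 9981 shared regions of peaks with a −log10 q of at least 10, the same 108 members had sample medians of 40.3 and 64.1 in sham and 44.5 and 45.4 in TBI, a difference of −7.24 points, although the median of their single differences was 0.05. Member by member over all shared regions, the difference had a median of 0.01 points with quartiles of −3.49 and 2.70, and 78 differed by at most 5 points. The median SE was 3.03 points, about as large as the quartiles, and the smallest adjusted p was 0.680 (limma). Differences ran from −23.96 to 8.70 points. The lowest was chr1:100131292-100132246, with pileups of 35.96 and 49.33 in sham and 15.88 and 12.15 in TBI. The next was its neighbour chr1:100130287-100131068, with 34.90 and 64.86 against 19.43 and 12.73. Both lie in the crowded window that holds the largest decrease. At the other end, chr8:117913906-117914318 had 24.57 and 22.01 in sham and 31.83 and 18.78 in TBI, so in raw pileup the TBI pair enclosed the sham pair. In all, 18 of the 108 strong members (16.7%) lay in crowded windows.

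Most short regions stood apart from longer ones. In the 4 samples, 18.5%, 23.7%, 20.4% and 15.7% of members lay within 5 kb of a peak of 1 kb or more, measured edge to edge. Among all short peaks of the same lists the shares were 20.2%, 20.1%, 21.5% and 11.4%, so members did not stand on one side of them. The median distance ran from 19919 bases in sham replicate 2 to 35913 bases in TBI replicate 2, which had the fewest long peaks (17861). Within 5 kb in all 4 samples were 1084 members (13.3%), and farther away in all 4 were 5806 (71.1%). Median percentiles of the near set were 26.5 and 20.5 in sham and 22.2 and 25.3 in TBI, and those of the far set were 27.1 and 22.6 in sham and 26.4 and 24.8 in TBI. The far set was the higher in 3 of the 4 samples, by most in TBI replicate 1.

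Members occurred on every autosome and on X. Their number ran from 1013 on chromosome 1 to 163 on X, or from 5.55 per Mb on chromosome 12 to 1.05 per Mb on X. Shared regions of all lengths were also sparsest per Mb on X (4.996) and densest on chromosome 12 (22.6), leaving out chromosome M, which held 1 shared region and 0 members. On the others, members made up between 19.3% (chromosome 10) and 28.1% (chromosome 9) of the shared regions of a chromosome. X held 2.00% of members and 3.49% of the regions of 1 to 4 kb.

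Levels beside the limit overlapped between its sides. The 3 members with a longest peak of 999 bases and the highest rank were chr2:261655740-261656612, chr5:109714074-109714998 and chr10:84530644-84531252. The first had pileups of 26.99, 24.77, 32.75 and 10.09, the second 27.90, 23.00, 31.12 and 9.59, and the last 6.54, 12.37, 15.80 and 4.20. Just outside, with a longest peak of 1000 bases, were chr9:61210348-61211249, chrX:104647417-104648364 and chr2:237523939-237524890. Their pileups were 35.71, 28.05, 37.27 and 13.78 at the first, 19.54, 13.23, 21.08 and 8.06 at the second and 16, 16.21, 22.06 and 6.66 at the last. In all 6 regions the lowest value was that of TBI replicate 2, the shallowest library.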

How the data were processed

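H3K4me3 ChIP-seq of rat hippocampus at day 1 was analysed from 4 deposited peak lists (2 sham, 2 TBI). The authors trimmed reads with Trim Galore 0.5.0, aligned them to rn5 with BWA 0.7.16a, dropped duplicate reads with SAMtools 1.8 and ran MACS2 2.1.2 on each sample in broad mode, with that sample's input as control, a 200-base extension, p cutoffs of 0.1 (broad) and 0.0001 (narrow) and a genome-wide background. The pileup signal was used as deposited and is not scaled to depth. The fold enrichment is the authors' ratio of pileup to background, as deposited. Significance is given as the authors' deposited −log10 p and −log10 q, although the headers state that q was not calculated. RNA-seq counts of the series were not used here.

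Overlaps and percentiles were computed with pandas 2.3.3, numpy 2.4.6 and scipy 1.17.1 under Python 3.11.15, matplotlib 3.10.9 drew the figures, and TBI was compared with sham in R 4.3.3 with limma 3.58.1 (mean-variance trend, two-sided, Benjamini-Hochberg over all shared regions, threshold 0.05). The steps were tested on simulated data. Members, the named-region rule (the 6 highest, 5 largest increases and decreases without overlap, 3 on each side of the limit, 3 lowest, the shortest and the highest fold) and the tests were chosen with earlier results of these data known. Alternatives were an overlap of 50%, a −log10 q of at least 10, a limit of 500 bases, other anchors, merged regions, fold enrichment, log2 scales, ranks over members alone, no trend, other distances, a replicate block and each sample left out. No rn5 genome was used, so genes and sequences are not given.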

Additional observations from a re-analysis of the deposited data

How the results depend on the processing

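The number of members fell to 108 with only peaks of −log10 q of at least 10, and to 1226 with a limit of 500 bases. Calls over all shared regions depended on the processing. The 23 higher calls became 1 anchored on TBI replicate 1, 0 anchored on TBI replicate 2 or sham replicate 2, 0 with merged regions, no trend, 50% overlap or −log10 q of at least 10, 93 with quantile-normalised log2 pileup and 130 with centred log2 pileup. With 1 sample left out they ran from 0 (without either TBI sample) to 181 (without sham replicate 2), with 45 without sham replicate 1; the lone sample is then assumed to vary like the other group. Lower calls, 0 in the percentile fit, were 60 anchored on TBI replicate 1, 26 centred, 4 quantile-normalised and from 0 to 1 with a sample left out (1 without sham replicate 2). Members called lower were 13 centred and 1 quantile-normalised, and 0 members were called under the other alternatives in either direction.

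Deviations of same-numbered samples had a correlation of 0.0217 over all shared regions and 0.102 over members. This is 1 pair of differences, which cannot decide whether the numbers pair the samples. The replicate block gave 29 higher and 3 lower calls over all shared regions and 0 among members.

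Members with TBI higher in both samples were 18.5% (50% overlap), 20.4% (−log10 q of at least 10), 23.1% (anchored on TBI replicate 1), 24.4% (anchored on TBI replicate 2), 20.2% (merged) and 19.3% (ranked over members alone). Those with TBI lower were 15.7% (−log10 q of at least 10), 14.3% and 12.5% (anchored on TBI replicates 1 and 2), 16.2% (merged), 17.3% (members alone) and 17.0% without the crowded windows, an alternative added after seeing the data. The shares over all shared regions are not given for these alternatives, so the values describe the members without a background. The difference of sample medians, 0.0131 points, was −7.24 with −log10 q of at least 10, 2.75 and 4.05 anchored on TBI replicates 1 and 2, and from −1.89 (without sham replicate 2) to 1.92 (without sham replicate 1) with 1 sample left out. The mean share near a longer peak, 19.6%, was 10.3% at 2 kb and 29.8% at 10 kb. For the 10 named changes, 0 of 80 alternative values reversed and 2 passed the threshold. These regions were picked as the largest differences without overlap of the groups. Leaving out a sample could therefore not reverse them, and the absence of reversals is no support. The cause of these changes was not tested. At 7236993 tags, 972 members stood at the lowest pileup of the TBI replicate 2 list, where lower levels cannot be told apart.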
